A study of Mus musculus with 6 samples.

Results

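Glutathione transferases were examined on Illumina bead arrays of cultured mouse embryonic fibroblasts (MEFs), the connective-tissue cells that grow out of an embryo. The genes were chosen by their symbol: Gsta1, Gsta2 and Gstm2 were the starting members, and every other gene named Gst with a class letter and a digit was added. This gave 11 genes and 16 probes, of 7606 genes with a named probe on the arrays; 7 of the probes belonged to Gsta1, Gsta2 and Gstm2. There were 3 arrays of wild-type cells and 3 of CypD knockout cells. Both groups came from E13.5 embryos on a C57BL/6 background, and both grew without any treatment named in the labels. CypD is cyclophilin D, a mitochondrial peptidyl-prolyl isomerase encoded by Ppif, and it was absent by design in the knockout cells only. The comparison addresses how cells with and without the gene differ in the expression of these enzymes. The labels do not say whether the replicate letters A, B and C stand for separate embryos or separate cultures, so the p-values speak only of the spread from array to array, part or all of which may be technical.

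Values are log2 intensities after background correction and quantile normalization, fold changes are knockout over wild type, and a probe counted as called when its adjusted p was under 0.05 (limma, Benjamini-Hochberg adjustment over 27168 tested probes, two-sided). Errors of means are SDs over 3 arrays, and errors of log2 fold changes are limma standard errors. Median deposited intensities ran from 223 to 251 over the 6 arrays. Ppif, the targeted gene, had log2 intensities of 13.57, 13.70 and 13.62 in wild type and 12.25, 12.35 and 12.18 in knockout (log2 fold change -1.37 ± 0.066, adjusted p = 2.96e-09). Its signal thus fell but did not reach background, and no source used here places the probe inside or outside the deletion, so it checks the labels only in part. Of 12 fibroblast markers 9 had a tested, named probe, and their mean signals ranged from percentile 57.2 of all probes (Dcn) to percentile 97.8 (Col1a1). Col1a1, Fn1 and Col1a2 lay at percentile 93.6 or higher. The only tested probes of Vim (66.5) and of Dcn, which fell to percentile 43.9 in knockout, were dim. A dim probe need not mean a low transcript level.

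Glutathione transferases join the tripeptide glutathione to electrophilic compounds, which makes drugs, toxins and the products of lipid peroxidation more soluble and ready for export. The soluble enzymes work as dimers and are divided into classes such as alpha (Gsta), mu (Gstm), theta (Gstt), omega (Gsto) and pi, while the kappa enzyme (Gstk1) belongs to a separate fold and is found in mitochondria and peroxisomes. Alpha and mu genes lie in clusters of close relatives, and several are textbook targets of the oxidant-responsive factor Nrf2 and of the aryl hydrocarbon receptor, which bind the antioxidant and the xenobiotic response element.

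The promoters of the starting members are shown as a description, and their part in the changes was not tested. The sequences are those of RefSeq on mouse build GRCm38.p6, from 250 bases before to 50 bases after the annotated start of the gene, written along the gene's strand. They were found for 10 of the 11 genes, Gsta4 being the exception, in 13 windows. Capitals mark the core GCGTG of the xenobiotic response element and the core TGACNNNGC of the antioxidant response element, both searched on both strands. The Gsta1 window is chr9:78230419-78230718 on the plus strand, the Gsta2 window chr9:78347096-78347395 on the minus strand, and the Gstm2 window chr3:107986371-107986670 on the minus strand.
Gsta1: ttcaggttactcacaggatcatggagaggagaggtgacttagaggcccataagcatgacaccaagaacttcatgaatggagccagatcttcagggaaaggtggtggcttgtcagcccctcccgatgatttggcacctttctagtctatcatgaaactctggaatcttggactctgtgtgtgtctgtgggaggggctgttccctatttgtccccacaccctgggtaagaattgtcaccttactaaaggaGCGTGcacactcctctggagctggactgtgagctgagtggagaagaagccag
Gsta2: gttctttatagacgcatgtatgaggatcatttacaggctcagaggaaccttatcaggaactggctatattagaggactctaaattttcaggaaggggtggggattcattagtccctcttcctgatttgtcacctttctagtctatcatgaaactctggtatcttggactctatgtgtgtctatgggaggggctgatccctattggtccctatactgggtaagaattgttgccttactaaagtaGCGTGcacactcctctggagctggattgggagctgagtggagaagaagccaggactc
Gstm2: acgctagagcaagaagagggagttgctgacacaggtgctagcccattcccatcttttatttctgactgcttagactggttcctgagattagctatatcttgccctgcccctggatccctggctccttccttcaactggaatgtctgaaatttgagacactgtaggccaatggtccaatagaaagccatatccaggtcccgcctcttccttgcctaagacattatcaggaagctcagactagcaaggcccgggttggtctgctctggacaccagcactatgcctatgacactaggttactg

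The Gsta1 and Gsta2 windows resembled each other, and each held 1 copy of GCGTG close to the start site. In a global alignment 232 of 289 aligned bases were identical (80.3%), while the next most similar pair of windows among the 10 genes, that of Gstm4 and Gstm5, reached 64.1%. The second longest run of identical bases, of 26 bases, carries that copy, with capitals as above.
Run shared by Gsta1 and Gsta2: aGCGTGcacactcctctggagctgga

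With the first transcribed base counted as 0, GCGTG spanned -2 to 2 in Gsta1 and -7 to -3 in Gsta2, on the gene's own strand in both. The Gstm2 window held neither core. Over the family, GCGTG was found in the windows of 4 genes, Gsta1, Gsta2, Gstm1 and Gstm5, of the 10 with a window, and it is common, being present for 35.2% of 27025 genes with windows of this length. The core TGACNNNGC, present for 14.0% of those genes, was found for 1 gene, Gstm5, where it overlapped one of 2 copies of GCGTG on the other strand. The Gstm5 window is chr3:107895604-107895903 on the plus strand, and it is shown because it alone held both cores.
Gstm5: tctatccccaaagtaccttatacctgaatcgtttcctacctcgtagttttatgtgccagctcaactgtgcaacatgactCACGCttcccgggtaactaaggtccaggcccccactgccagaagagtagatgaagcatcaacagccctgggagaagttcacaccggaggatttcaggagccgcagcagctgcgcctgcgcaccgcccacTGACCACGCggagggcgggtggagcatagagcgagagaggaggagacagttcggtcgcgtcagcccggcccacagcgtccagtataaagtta
Of the genes with GCGTG, Gsta1 and Gsta2 fell in the knockout cells, Gstm5 rose and Gstm1 did not pass. Of those with neither core, Gstt3 fell, Gstm2 and Gstk1 rose, and Gstm4, Gstt1 and Gsto1 did not pass. Elements further than 250 bases before the start were not searched, so a window without a core does not mean a gene without one. A match is a description of these letters, and the binding of any factor was not measured.

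The alpha-class genes Gsta1 and Gsta2 were lower in the knockout cells, and the mu-class genes Gstm2 and Gstm5 and the kappa-class gene Gstk1 were higher. The theta-class gene Gstt3 was lower as well, while Gsta4, Gstm1, Gstm4, Gstt1 and Gsto1 did not pass. All 16 probes passed the filter on dim signal, the dimmer Gstk1 probe only through its knockout arrays, since its wild-type mean lay below the filter. Of the 16, 6 rose, 5 fell and 5 did not pass, so 11 were called, in 6 genes, with that Gstk1 probe among the rises. Among all tested probes with a gene name, 42.1% were called, 20.5% upward and 21.6% downward, beside 68.8% of the transferase probes. By gene, 6 of 11 had a called probe, against 43.6% of named genes by their brightest tested probe. The starting members were chosen with earlier results of these data known, and all their probes were called. Neither share is therefore a result about the family. The groups did not overlap for 14 of the 16, against 54.7% of named tested probes, a count that has the same limit. The median log2 fold change over the 16 probes was 0.00, as was that over all tested probes (0.00). Names were available only for probes that the authors' processed table lists, by a rule not known here, so the named background is the one to compare with. Over all tested probes, named or not, 20.0% were called, 9.78% upward and 10.2% downward. A call with at least a 2-fold difference was made for 2 transferase probes, 1 of Gstk1 upward and 1 of Gsta1 downward, against 5.64% of named probes in either direction and 2.66% downward. A whole culture was measured, so fewer cells that express a gene and less RNA per cell cannot be told apart.

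**Figure D1:**
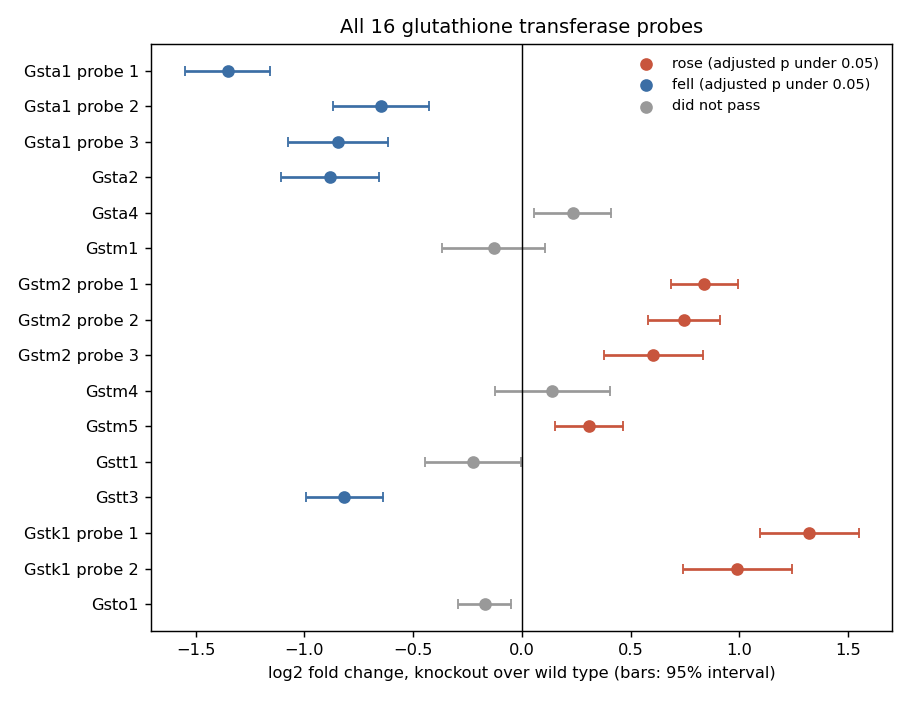
Log2 fold change, knockout over wild type (x axis), for each of the 16 glutathione transferase probes (rows, probes of a gene numbered by brightness), with 95% intervals from limma over 3 arrays per group. Red points rose, blue points fell and grey points did not pass; the probes of Gsta1, Gsta2 and Gstt3 lie left of 0 and those of Gstm2, Gstm5 and Gstk1 right of it.

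Gsta1, an alpha-class enzyme known for the conjugation of electrophiles and for reducing organic peroxides, fell by each of its 3 probes. Its brightest probe, ILMN_2979237, gave log2 intensities of 9.74, 9.58 and 9.76 in wild-type arrays A, B and C and of 8.33, 8.30 and 8.40 in knockout arrays A, B and C. All knockout arrays lay more than 1 log2 unit below all wild-type arrays. The means were 9.69 ± 0.095 and 8.34 ± 0.054 (SD, n = 3 each), a log2 fold change of -1.35 ± 0.091 (limma adjusted p = 8.69e-08), or 2.55-fold lower. The deposited intensities behind these values, before any correction, were 1027, 882 and 937 in wild type and 414, 395 and 430 in knockout.

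The other probes of Gsta1 were dimmer and fell as well. Probe ILMN_2657636 read 8.19, 8.31 and 8.46 in wild type and 7.63, 7.72 and 7.66 in knockout (log2 fold change -0.65 ± 0.10, adjusted p = 0.000401, 1.57-fold lower). Probe ILMN_1231997 read 7.99, 8.18 and 8.26 in wild type and 7.38, 7.25 and 7.26 in knockout (-0.85 ± 0.11, adjusted p = 5e-05, 1.80-fold lower). Neither probe had overlapping groups, so the 3 probes shared the direction. Their knockout means stood at percentiles 65.8 and 57.5 of all probes, where background compresses a fold, so the sizes cannot be set against that of the brightest probe. The log2 fold change of ILMN_1231997 ran from -0.58 without background correction to -1.01 with an offset of 16.

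Gsta2, the close relative of Gsta1, was measured by 1 named probe, ILMN_1248849. It read 8.30, 8.24 and 8.45 in wild type and 7.41, 7.36 and 7.56 in knockout. The groups were separate, and the log2 fold change was -0.88 ± 0.10 (adjusted p = 2.79e-05), 1.84-fold lower. Its deposited intensities were 441, 406 and 420 in wild type and 260, 252 and 279 in knockout, and the normalized knockout mean reached percentile 61.5 of all probes. Expression is not separated from background at that brightness. The size moved with the background correction, from 1.55-fold without it to 2.05-fold with an offset of 16 in place of 50. In the RefSeq gene order of GRCm38.p6, Gsta1 and Gsta2 lie on chromosome 9 with 4 protein-coding genes between them, Gm3776, Gm10639, Omt2a and Omt2b. Probe sequences were not analysed here, so a probe named for one alpha gene may also bind a relative.

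Gsta4, an alpha enzyme known for its preference for 4-hydroxynonenal, a product of lipid peroxidation, did not share the fall. It read 9.40, 9.32 and 9.44 in wild type and 9.63, 9.62 and 9.60 in knockout, so its knockout values all lay above its wild-type values. The log2 fold change was 0.23 ± 0.082 with a 95% interval of 0.06 to 0.41, and it missed the threshold (adjusted p = 0.0629). The call was made without wild-type array C (adjusted p = 0.0464), with array weights (adjusted p = 0.047) and among probes above the 70th percentile (adjusted p = 0.0343). Gsta4 is the direct neighbour of Gsta1 among protein-coding genes. The log2 fold changes of Gsta1 and Gsta4 differed by -1.59, and those of Gsta2 and Gsta4 by -1.12. In both cases the per-array differences did not overlap between the groups (exact permutation p = 0.1, two-sided, the smallest that 3 against 3 arrays can give).

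**Figure D2:**
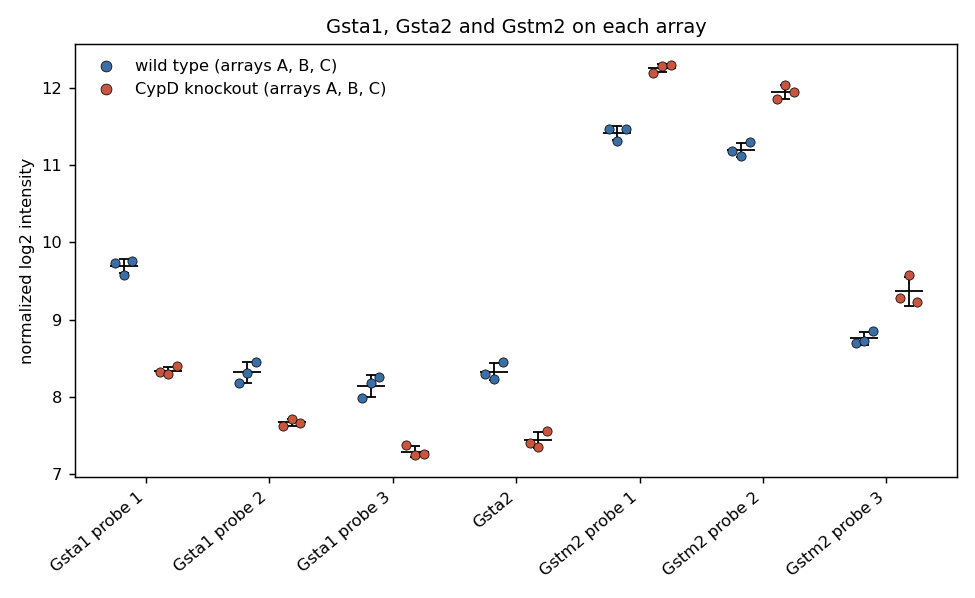
Normalized log2 intensity (y axis) of each named probe of Gsta1, Gsta2 and Gstm2 on each array, with the group mean and SD (bars, n = 3). Every knockout point of Gsta1 and Gsta2 lies below the wild-type points of the same probe, and every knockout point of Gstm2 lies above them; levels of different probes cannot be compared.

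Gstm2, a mu-class enzyme found in muscle and brain among other tissues, rose by each of its 3 probes. Probe ILMN_2624854, the brightest, read 11.47, 11.31 and 11.47 in wild type and 12.19, 12.28 and 12.29 in knockout. The means were 11.41 ± 0.091 and 12.25 ± 0.056 (SD, n = 3 each), a log2 fold change of 0.84 ± 0.072 (adjusted p = 1.1e-06), 1.79-fold higher. Its deposited intensities were 3200, 2668 and 2872 in wild type and 4665, 4830 and 4965 in knockout, well above the array medians, and the fold change moved little with the processing, between 1.72-fold and 1.83-fold.

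The other Gstm2 probes agreed in direction. Probe ILMN_1251449 read 11.18, 11.11 and 11.29 in wild type and 11.85, 12.03 and 11.94 in knockout (0.75 ± 0.077, adjusted p = 7.05e-06, 1.68-fold higher). The dimmest, ILMN_2862470, read 8.70, 8.73 and 8.86 in wild type and 9.29, 9.58 and 9.23 in knockout (0.61 ± 0.11, adjusted p = 0.000918, 1.52-fold higher). All their knockout arrays lay above all wild-type arrays, and the 95% intervals of the 3 probes overlapped.

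Of the other mu genes Gstm5 passed and Gstm1 and Gstm4 did not. Gstm5 read 11.50, 11.52 and 11.69 in wild type and 11.91, 11.87 and 11.87 in knockout, without overlap, and rose 1.24-fold (0.31 ± 0.072, adjusted p = 0.0074). Gstm1, often the main mu enzyme of liver, read 7.66, 7.93 and 7.66 in wild type and 7.66, 7.69 and 7.51 in knockout, so the groups overlapped, and its log2 fold change of -0.13 ± 0.11 had a 95% interval of -0.37 to 0.11 (adjusted p = 0.505). Gstm4 read 7.64, 7.54 and 7.69 against 8.03, 7.59 and 7.68, with overlap (0.14 ± 0.12, interval -0.12 to 0.40, adjusted p = 0.519). The higher mean of Gstm4 rested on knockout array A, without which the log2 fold change was 0.01. Gstm2, Gstm1 and Gstm4 are neighbours on chromosome 3, and Gstm7, Gstm6 and Gstm3, which had no named probe, lie between Gstm5 and Gstm2. The log2 fold change of Gstm2 exceeded that of Gstm1 by 0.97, that of Gstm4 by 0.70 and that of Gstm5 by 0.53. The per-array differences were again separate between the groups in each case (exact permutation p = 0.1, the smallest possible).

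Gstk1, the kappa-class enzyme of mitochondria and peroxisomes, had the largest rise of the family. Its brighter probe read 7.08, 7.16 and 7.28 in wild type and 8.37, 8.52 and 8.60 in knockout. The groups were more than 1 log2 unit apart, and the log2 fold change was 1.32 ± 0.11 (adjusted p = 5.29e-07), 2.50-fold higher. The other probe read 6.82, 6.88 and 6.71 against 7.60, 7.94 and 7.85, a log2 difference of 0.99. That probe entered the test only because its knockout arrays were higher, so it adds no support of its own. The wild-type means were at percentiles 53.4 and 33.7, too dim to separate expression from background, and neither fold is exact. The folds accordingly ranged with the processing from 1.91 to 2.96 for the brighter probe and from 1.54 to 2.42 for the dimmer one. Among probes above the 70th percentile neither was tested, and the brighter one kept its call in the other alternatives.

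The theta genes Gstt3 and Gstt1, whose class acts on small halogenated compounds among others, are neighbours on chromosome 10. Gstt3 read 10.34, 10.26 and 10.40 in wild type and 9.54, 9.56 and 9.45 in knockout. It was 1.76-fold lower (-0.82 ± 0.082, adjusted p = 5.59e-06), with no overlap. Gstt1 read 7.95, 7.79 and 8.05 against 7.67, 7.71 and 7.73, with a log2 fold change of -0.22 ± 0.10 (interval from -0.45 to just below 0, adjusted p = 0.162). The 2 log2 fold changes differed by -0.59, with per-array differences that did not overlap (exact permutation p = 0.1). Over the 7 pairs compared in this way, each permutation p was 0.1 and remained 0.1 after Benjamini-Hochberg adjustment, so this design cannot call any of them. Each pair held a called gene whose own groups did not overlap, so separate differences were likely beforehand and are not a further result.

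Gsto1, the omega-class enzyme that also reduces dehydroascorbate, was bright in both groups. It read 13.59, 13.71 and 13.66 in wild type and 13.44, 13.52 and 13.49 in knockout. Every knockout array was lower, by a log2 fold change of -0.17 ± 0.057 (interval -0.29 to -0.05), and the adjusted p of 0.0508 missed the threshold. Median scaling (adjusted p = 0.00827), probes above the 70th percentile (adjusted p = 0.0322) and the fit without wild-type array A (adjusted p = 0.0465) called it. RefSeq lists 11 further protein-coding genes of this naming, among them Gstp1, Gstz1, Gsta3 and Gstt2; they had no named probe and were not analysed here.

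**Figure D3:**
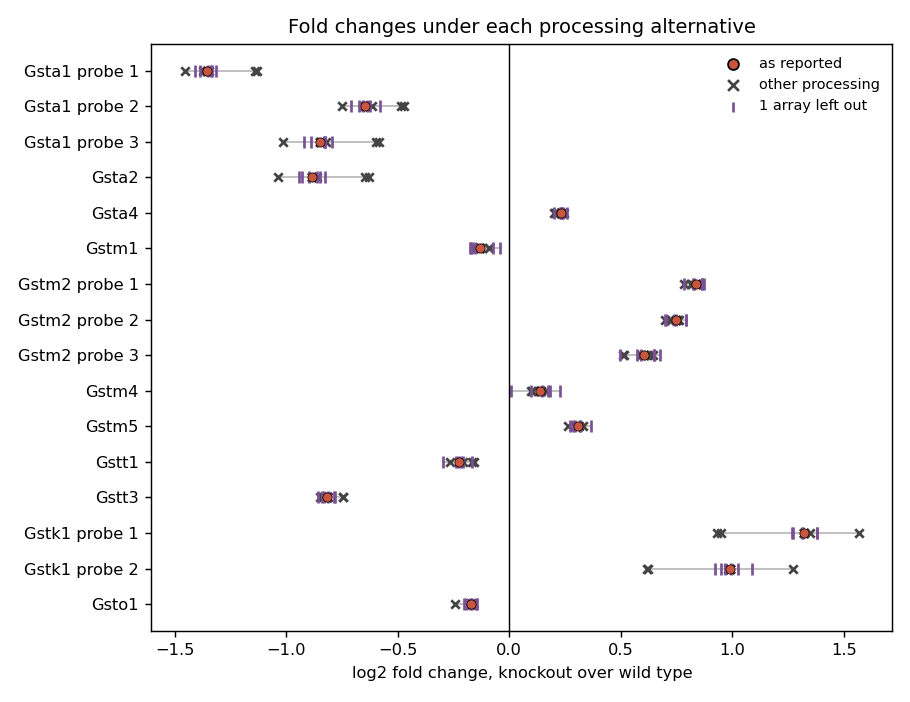
Log2 fold change, knockout over wild type (x axis), of the 16 probes as reported (red) and under each processing alternative (crosses) or with 1 array left out (vertical ticks). No probe crosses 0, and the widest spreads are those of Gsta1, Gsta2 and Gstk1, the dimmer changed genes.

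The membrane-bound relatives of the family moved in both directions. Mgst3, a microsomal enzyme with transferase and peroxidase activity, read 10.82, 10.82 and 10.97 in wild type and 10.01, 10.15 and 10.04 in knockout and was 1.74-fold lower (-0.80 ± 0.082, adjusted p = 6.31e-06); another Mgst3 probe gave -0.79. Ptges, the inducible prostaglandin E synthase of the same superfamily, was 2.29-fold higher (1.20 ± 0.11, adjusted p = 1.89e-06), with a dim wild-type mean at percentile 57.7. Mgst1 was 1.38-fold higher (0.46 ± 0.11, adjusted p = 0.00977), a call lost without knockout array C (adjusted p = 0.0569). Of 4 tested members, 2 rose, 1 fell and 1, Mgst2, did not pass (-0.16 ± 0.098); among probes above the 70th percentile 1 was called in place of 3, with Ptges and Mgst1 not tested there. Here and in the lists below each gene stands by its brightest tested probe, and 43.6% of 7605 named genes were called, 21.8% in each direction, with a median log2 fold change of 0.01.

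Genes that supply glutathione moved in both directions, with more members not passing than called. Slc7a11, the cystine carrier of the xc- exchanger, read 9.10, 9.10 and 9.27 in wild type and 8.31, 8.31 and 8.23 in knockout. It was 1.83-fold lower (-0.87 ± 0.093, adjusted p = 9.46e-06). Another probe, dim at percentile 56.0 of mean signal, did not pass (-0.24, adjusted p = 0.16). Gclm, the modifier subunit of the rate-limiting ligase, was 1.33-fold lower (-0.42 ± 0.068, adjusted p = 0.000478). Gclc, the other subunit of that ligase, lay in the opposite direction without overlap and did not pass (0.23 ± 0.11, adjusted p = 0.163). Shmt2, a mitochondrial enzyme of serine and glycine, fell by 0.39, with a second, dim probe (percentile 63.0) that did not pass (-0.20). Slc1a4, a neutral amino acid carrier, rose by 0.25, a call lost under median scaling (adjusted p = 0.0616), without the intensity trend (adjusted p = 0.0505) and in 5 of the 6 fits that left out 1 array. Glutathione synthetase, Gss, gave -0.23 ± 0.087 and Slc3a2, the partner chain of Slc7a11, 0.29 ± 0.11, and neither passed, although Slc3a2 was called without wild-type array C (adjusted p = 0.0196). Of 10 tested members of the 17 listed, 1 rose, 3 fell and 6 did not pass, with a median log2 fold change of 0.05.

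Enzymes that recycle glutathione or remove peroxides and aldehydes also went both ways. Idh1, which makes NADPH in the cytosol, rose 1.59-fold (0.67 ± 0.077, adjusted p = 2.06e-05). Hagh, the second enzyme of the glyoxalase route, was 1.44-fold lower (-0.53 ± 0.077, adjusted p = 0.000181), and Gpx4, the peroxidase of membrane lipids, was 1.22-fold lower (-0.28 ± 0.068, adjusted p = 0.00824; 0.0533 without the intensity trend). Sod1 rose by 0.26 by its brightest probe but not by a much dimmer one at percentile 68.2 (0.06, adjusted p = 0.823). The brightest probe was not called under median scaling (adjusted p = 0.0988) or without the intensity trend (adjusted p = 0.0718). Glo1 (-0.20 ± 0.073) and the brightest probe of Gpx8 (0.25 ± 0.085) did not pass. A second Gpx8 probe rose (0.28, adjusted p = 0.0369), and without wild-type array B both Gpx8 and Glo1 were called (adjusted p = 0.00706 and 0.0229). The 11 members tested gave 2 rises, 4 falls and 5 values short of the threshold (median -0.21), and the fit without the intensity trend called 2 in place of 6.

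The thioredoxin and peroxiredoxin system had 12 tested members, with 3 rises, 1 fall and 8 that missed the threshold (median 0.10). Txnip, which binds and inhibits thioredoxin, rose 2.03-fold (1.02 ± 0.10, adjusted p = 4.27e-06), and Msrb2, a mitochondrial methionine sulfoxide reductase, 1.44-fold. Txnrd2, the mitochondrial thioredoxin reductase, rose by 0.31, a call lost without the intensity trend (adjusted p = 0.0651) and in 5 of the 6 fits that left out 1 array. Txn2, the mitochondrial thioredoxin, fell by 0.43, while another, dim probe (percentile 60.9) gave 0.07. Prdx2 gave 0.10 by its brightest probe and did not pass, whereas its other probes gave 1.61 and 1.77 (adjusted p = 6.41e-09 and 3.21e-08). Prdx4 did not pass (0.10 ± 0.060).

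Among genes of conjugate export and the mercapturate route, 6 members were tested: 1 rose, 3 fell and 2 missed the threshold (median -0.27). The exporters Abcc5 and Abcc4 were 1.44-fold and 1.31-fold lower (adjusted p = 0.00164 and 0.00152), and Abcc1, a classic pump of glutathione conjugates, gave -0.16 ± 0.12. Ggt7, a member of the gamma-glutamyltransferase family, fell by 0.40 and Kyat3, a cysteine conjugate lyase, rose by 0.33. The count of 4 called members became 2 without knockout array A or without knockout array C, where Ggt7 and Kyat3 lost their calls, and Ggt7 was also not called without wild-type array A or B. Acy1 did not pass (0.17 ± 0.078).

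The Nrf2 pathway and its other targets had 19 tested members, with 4 rises, 7 falls and 8 that missed the threshold (median 0.07). Nqo1, a quinone reductase, was 1.36-fold lower (-0.45 ± 0.11, adjusted p = 0.00909), a call lost without knockout array B (adjusted p = 0.0563). Akr1b8, an aldo-keto reductase, Ephx1, the microsomal epoxide hydrolase, and Abhd4, a lipase, were 1.36-fold, 1.31-fold and 1.38-fold lower. The 4 rises were those of Mafg (0.44), Cbr1 (0.33), Akr1b10 (0.26) and Cul3 (0.25), with adjusted p from 0.0243 to 0.0368. The Mafg groups overlapped, with 12.21 in wild-type array A and 12.15 in knockout array A, although a second Mafg probe also rose. Trim16 also fell (-0.40, adjusted p = 0.0115). The fall of Keap1 (-0.21) only just passed (adjusted p = 0.0498). Another Keap1 probe fell as well, and a further one did not pass. Nfe2l2, the gene of Nrf2 itself, did not pass (-0.23, adjusted p = 0.412). These added genes were not followed singly under the alternatives. The factor Nfe2l1 (0.12 ± 0.069) and the transketolase Tkt (0.22 ± 0.079) did not pass, although Tkt was called without wild-type array A (adjusted p = 0.039). The count of 11 called members fell to 7 without wild-type array B, 6 without knockout array A, 4 without knockout array B or C, and 5 without the intensity trend. Hmox1, heme oxygenase 1, was singled out after its values were seen. It read 10.73, 10.94 and 8.30 in wild type and 8.88, 8.73 and 7.55 in knockout, so the groups overlapped and both C arrays were low; its call (-1.60 ± 0.53, adjusted p = 0.0466) was lost in 5 of the 6 fits that left out 1 array, the exception being the fit without wild-type array C, and also with an offset of 16 (adjusted p = 0.0503), above the 70th percentile (0.0617) and without the intensity trend (0.113).

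Among phase I and other conjugation enzymes, 15 members were tested: 4 rose, 7 fell and 4 missed the threshold (median -0.27). Adh7, an alcohol and retinol dehydrogenase, read 11.24, 11.25 and 11.38 in wild type and 7.54, 7.75 and 7.57 in knockout, 12.7-fold lower. Aldh1a3, a retinaldehyde dehydrogenase, was 4.25-fold lower (-2.09 ± 0.10, adjusted p = 3.19e-09). Both knockout means were dim, at percentiles 65.1 and 59.3, so these folds are not exact: between no background correction and an offset of 16 they ran from 8.92 to 15.2 for Adh7 and from 3.06 to 5.10 for Aldh1a3. Ahrr, the repressor and target of the aryl hydrocarbon receptor, read 8.99, 8.88 and 9.07 in wild type and 7.84, 7.77 and 8.06 in knockout, 2.13-fold lower (-1.09 ± 0.10, adjusted p = 3.39e-06). Tpmt, a thiopurine methyltransferase, rose 1.60-fold, with 1.13 and 0.54 for its other probes. The other called genes of the list went both ways. Cyp1b1 (0.20, adjusted p = 0.0175), Aldh2 (0.30) and Cyp51 (0.31) rose. Aldh3a1 (-0.51), Nat2 (-0.48), Tiparp (-0.43) and Cyb5r3 (-0.61) fell, although another Cyb5r3 probe gave -0.03 and did not pass. The receptor's partner Arnt (0.12 ± 0.097) and Aldh3a2 (0.07 ± 0.082) did not pass.

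**Figure D4:**
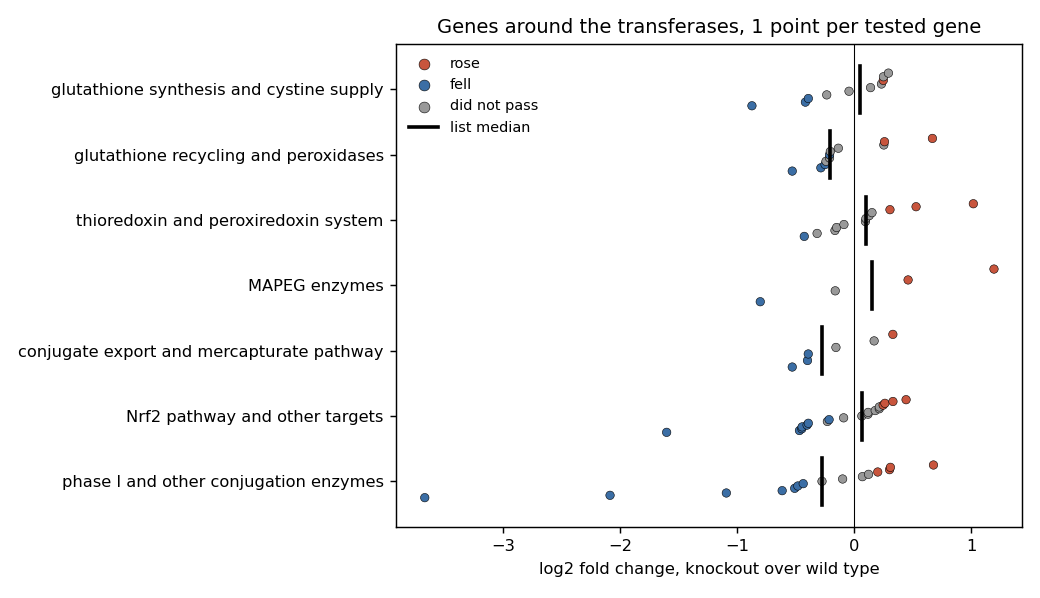
Log2 fold change, knockout over wild type (x axis), of each tested gene in 7 lists around the transferases (rows), by its brightest tested probe; black bars are list medians. Each list holds genes that rose (red) and genes that fell (blue), and the list medians lie between -0.27 and 0.15.

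Profiles most like those of the starting members were sought among 7594 other named genes by Pearson correlation of log2 intensity over the 6 arrays. For Gsta1 the closest were Trpc1, Sulf1, Anxa8, Smug1 and Lama5 (r from 0.9989 to 0.9994). For Gsta2 they were Dnajc11, Scx, Ahrr, Txnl4a and Slc35a2 (r from 0.9973 to 0.9987). For Gstm2 they were Zfp512b, Tubb2b, Zbtb39, Sorcs1 and Mxd1 (r from 0.9979 to 0.9985). With 2 groups of 3 arrays such values mainly record the difference between the groups, and 839, 735 and 820 genes exceeded 0.95 for Gsta1, Gsta2 and Gstm2.

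Markers of other cell types were read beside these results. Of 10 hepatocyte markers, cells in which several of these transferases are abundant, 0 had a named probe. Of 8 epithelial markers 2 were tested: Krt19 fell by 0.35, a call lost without wild-type array A, knockout array A or knockout array C (adjusted p = 0.0581, 0.0788 and 0.0775), and Cdh1 gave -0.09; their summed linear signal was 542 to 622 in wild type and 441 to 497 in knockout. Of 6 neural markers 3 were tested and all 3 fell, Stmn2 6.91-fold, Mbp 1.94-fold and Nes 1.92-fold, with a summed signal of 5581 to 6250 in wild type and 1764 to 1870 in knockout. Of 7 endothelial markers 1 was tested, Esam (-0.38 ± 0.13, summed signal 161 to 214 and 139 to 169), and of 8 leukocyte markers 2, Cd14 (-0.25 ± 0.093) and Coro1a (0.30 ± 0.13, summed signal of both 864 to 1066 and 879 to 902), and none of these 3 passed. Calls were made for Coro1a without wild-type array C (adjusted p = 0.00696), for Cd14 without wild-type array B (0.0462), and for Esam without wild-type array B (0.0132) or knockout array A (0.0429). The 9 fibroblast markers tested gave 3 rises, 4 falls and 2 that did not pass, with a summed signal of 36463 to 37570 in wild type and 27798 to 32296 in knockout; S100a4 and Col1a1 fell 3.08-fold and 1.55-fold, Pdgfra and Col3a1 rose 2.76-fold and 2.19-fold, and Vim gave -0.24 ± 0.14. Fn1 did not pass by its brightest probe (0.24, adjusted p = 0.138), which was called without knockout array B (0.37, adjusted p = 0.0201). Another bright Fn1 probe rose without overlap (0.39, adjusted p = 0.007). Dimmer ones, at percentiles 70.8 and 63.4, gave 0.09 and -0.01 and did not pass. The part of these differences in those of the transferases was not tested.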

How the data were processed

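The deposited data are linear intensities of 45281 probes for each of 6 arrays and a processed intensity table listing 12534 probes. The submitters' processing notes name BeadStudio 3.0, and other settings are not stated in the labels. The files hold no detection p-values, control probes, slides or scan dates. Genes were named from the annotation of the listed probes, 10653 with 1 symbol, and 10643 were updated through RefSeq (GRCm38.p6). Intensities were corrected with normexp (offset 50), quantile-normalized and expressed as log2 values (limma 3.58.1, R 4.3.3); the offset compresses the folds of dim probes. Probes above the 40th percentile of mean signal were tested (lmFit, eBayes with an intensity trend). Alignments used Biopython 1.88. Arrays number 3 per group, which limits precision. The procedure was tested on simulated data with independent noise for each probe and array. That setting does not give the rate of false calls in these data. Members and gene lists were chosen with earlier results of these data known. The text names every transferase probe, Ppif, and from each list up to 4 called genes of lowest p and 2 of highest signal that did not pass, and 5 genes of most similar profile for each starting member. Hmox1, Nfe2l2, Gclc and the other called genes of the Nrf2 and phase I lists were named beyond this rule, after their values were seen. Of these added genes only Hmox1 was followed singly under the alternatives. Alternatives changed the background correction, scaling, filter, intensity trend, array weights, source table and replicate block, or left out 1 array.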

Additional observations from a re-analysis of the deposited data

How the results depend on the processing

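Over the 16 transferase probes and 15 alternatives, 232 values were computed: 0 changed direction, 0 calls were lost and 6 values of Gsta4 and Gsto1 passed the threshold that they had missed. The number of called transferase probes ran from 8 (among probes above the 70th percentile, where 5 called probes, of Gsta2, Gsta1 (2) and Gstk1 (2), were not tested and Gsta4 and Gsto1 were called) to 12, against 11. The replicate letters are shared by the groups, and same-letter arrays did not deviate together (correlations of -0.0899 to 0.101). Such values do not settle whether the letters pair the arrays. With the letter as a replicate block 5273 probes in all were called, against 5423, and 11 transferase probes. Median scaling called 2283 probes upward and 3119 downward in place of 2656 and 2767. The block also called Slc3a2 (adjusted p = 0.0375), Glo1 (0.0444) and Esam (0.0374). Those are among 19 values of 9 list genes that passed the threshold under an alternative after missing it: Slc3a2, Gss, Glo1, Gpx8, Tkt, Fn1, Esam, Cd14 and Coro1a. Among the other named genes, 5 values near 0 changed sign: Prdx4 under median scaling (-0.018), Aldh3a2 without wild-type array B, Arnt without wild-type array C, and Cdh1 without wild-type array C or knockout array A. With 1 array left out, Aldh3a2 ranged from -0.017 to 0.13, Arnt from -0.0034 to 0.20 and Cdh1 from -0.19 to 0.014. The cause was not tested. Signals near the array median limit Gsta2, the dimmer Gsta1 probes, Gstk1, Gstm1, Gstm4 and Gstt1.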
